A study of Mus musculus with 15 samples.

Results

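The 9 genes described here encode enzymes that carry long-chain fatty acids into mitochondria and shorten them there, and a pair of receptors that sense fatty acids: Cpt1a, Cpt2, Acadm, Acadl, Acadvl, Hadha, Hadhb, Ppara and Ppard. They were chosen by gene name among the probes that were not controls, and 13 of the 55681 probes on the array carry these names, out of 34761 gene names in all. The cells were CD4 T lymphocytes of male mice, sorted from small intestinal lamina propria, which is the layer that lies under the gut epithelium, and each sample filled 1 one-colour array. The 3 groups, of 5 arrays each, were a high-fat diet (HFD) for 10 days, HFD for 30 days, and control on normal chow. Genotype, strain and age are not given for any group in the sources used here. RNA of all groups passed through SuperAmp, a commercial amplification for small amounts of RNA whose steps are undisclosed, before Cy3 labelling. The series calls the dieted mice prediabetic and diabetic, and its design text says that the diet was given to change the gut microbiota. The question here is whether these genes differ in gut CD4 T cells once mice eat fat, soon and later. The labels give the controls no day, so time on the diet, time in the experiment and age cannot be told apart. Whether samples of one group came from separate mice is not stated, so p-values here reflect only the spread between samples, part of which may be technical.

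Long-chain fatty acids enter mitochondria as carnitine esters: CPT1A, on the outer membrane, makes the ester in the step that controls the rate of the pathway, and CPT2, on the inner membrane, turns it back into acyl-CoA. A turn of beta-oxidation then opens with an acyl-CoA dehydrogenase, and the members include those for very long, long and medium chains. For long chains it closes with the hydratase, dehydrogenase and thiolase activities of the trifunctional protein, which is built from the products of Hadha and Hadhb. PPAR-alpha and PPAR-delta are nuclear receptors that bind fatty acids, pair with RXR and raise transcription of many of these enzymes in liver and muscle. In T cells, fatty acid oxidation is known for its use by memory and regulatory cells.

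A level below is log2 of a probe's processed intensity minus the 75th percentile of its array, so that 0 is the brightness of a probe at that percentile, and levels of different probes are not compared with each other. A spot is called well above background by the scanner software. The T cell markers bore out the label: 11 of 12 were well above background on all 15 arrays, Cd3d, Cd3e, Cd3g and Cd4 among them, and Cd247 was so on 14. The mean level of the T cell markers on an array was lowest on control replicate 1, at 1.30. The next lowest array, day 10 replicate 2, had 2.72. Control replicate 1 also had the highest mean level of enterocyte (-1.36), macrophage and dendritic cell (0.50) and B cell markers (-1.02). It was not the highest for CD8 T and NK cell, stroma and endothelium or adipocyte markers. Markers of other cells were detected in part. Those well above background on all 15 arrays were 3 of 17 for enterocytes, 4 of 11 for macrophages and dendritic cells, 3 of 8 for B cells, 4 of 9 for CD8 T and NK cells, 0 of 8 for stroma and endothelium and 0 of 6 for adipocytes. Cd22, of B cells, was detected on all 15, Cd79b, Cdh1 and Pecam1, of B cells, epithelium and endothelium, on 13 each and Cd8a on 12, while Alpi, Ms4a1 and Cdh5, of enterocytes, B cells and endothelium, were detected on 0. Spots well above background made up 58.5% ± 2.91 of an array at day 10, 51.3% ± 5.48 at day 30 and 63.8% ± 12.0 in control (SD, n = 5 each), with control replicate 1 highest at 82.0% and day 30 replicate 3 lowest at 45.2%. Day 10 replicates 1 to 3 shared slide 1 with the 5 controls, and day 10 replicates 4 and 5 shared slide 2 with the 5 day 30 arrays, so no slide held both day 30 and control arrays.

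No member passed the test in any comparison, and no member's groups were free of overlap. Each gene entered a two-sided limma fit of 25983 genes through its brightest probe on average, and its p was adjusted by Benjamini-Hochberg, with a threshold of 0.05. The filter asked for a probe that stood well above background on 5 or more of the 15 arrays: 11 of the 13 probes passed it, and all 9 members were tested. Over the whole array 0 genes passed in each comparison (0% of those tested), and the smallest adjusted p in limma was 0.704 at day 10 and 0.367 at day 30, both against control, and 0.432 between the dieted groups. At an unadjusted p under 0.05, the same fit held 673 genes (2.59%) at day 10 and 1336 (5.14%) at day 30, both against control, and 1065 (4.1%) between day 30 and day 10. At that level, 2 of the 9 members were lower at day 10 than in control, Cpt2 and Ppara, beside 1.7% of all tested genes lower and 0.889% higher. The same 2 members were lower at day 30 than in control at that level, beside 2.67% of all tested genes lower and 2.47% higher. The probe that stands for each of these 2 was the brightest of its gene in control but in neither dieted group. The Cpt2 probe also passed the filter with 4 controls among its 5 arrays. The counts of lower members therefore give no separate support. None of the 9 reached an unadjusted p under 0.05 for day 30 against day 10, where 2.28% of all tested genes were lower and 1.82% higher. Groups did not overlap for 0.42%, 0.608% and 0.573% of all tested genes in these 3 comparisons. The day 10 and day 30 comparisons share their control arrays, so low values of 1 member in both are not separate observations.

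The median of the members' differences was -0.03 for day 10 against control, beside 0.00 over all tested genes. It was -0.01 at day 30 against control, beside 0.01 over all tested genes, and 0.32 between day 30 and day 10, beside 0.06. By sign alone, 4 members were higher and 5 lower at day 10 than in control, where 49.9% of all tested genes were higher. At day 30, 4 were higher and 5 lower than in control (50.3% of all genes higher), and 7 were higher and 2 lower than at day 10 (53.1% of all higher). The 95% confidence interval of the difference included 0 for 7 of the 9 members at each day against control and for all 9 between day 30 and day 10.

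**Figure D1:**
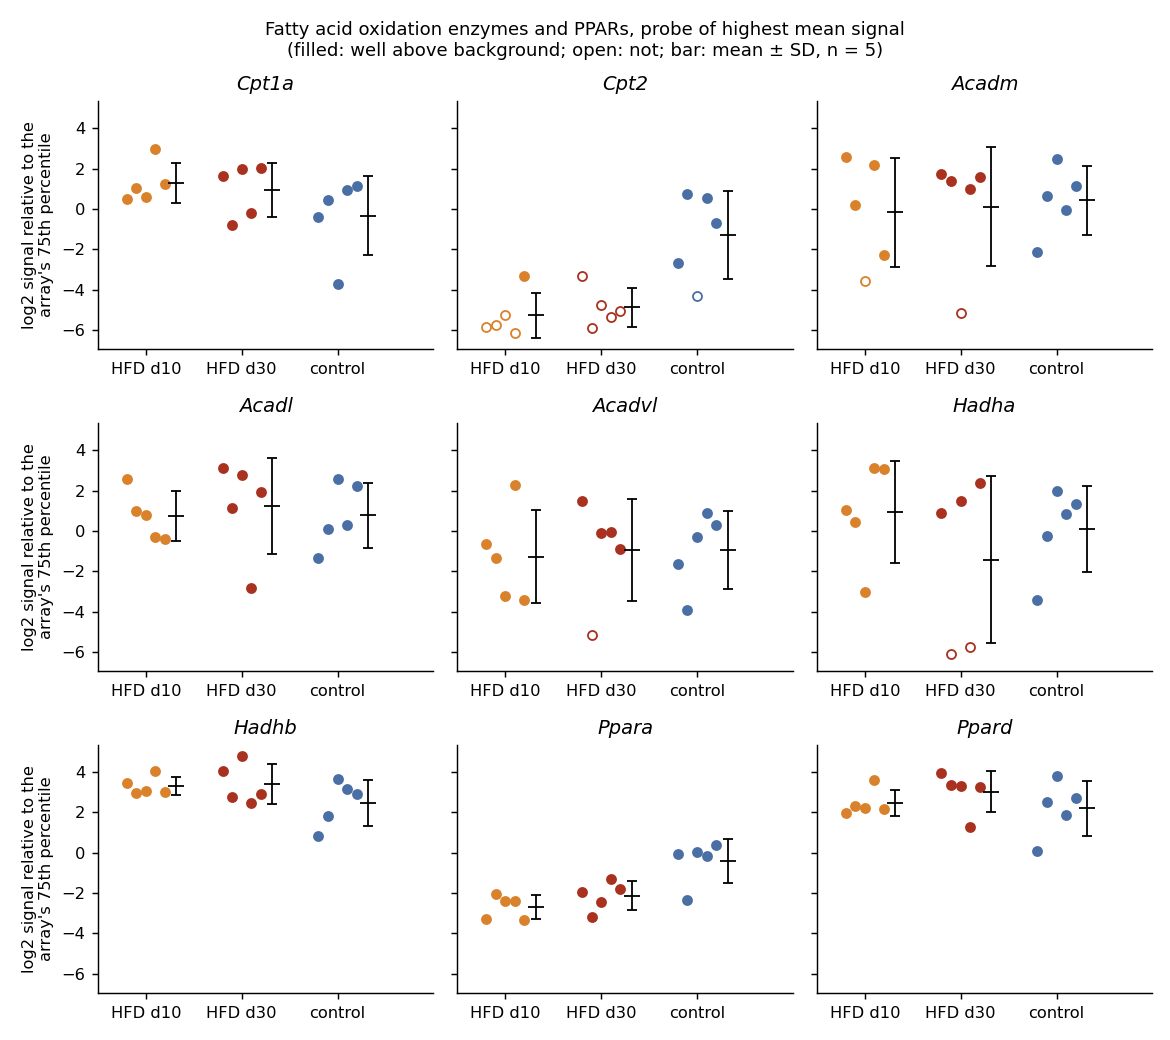
Level of each of the 9 genes, log2 signal relative to the array's 75th percentile, on every array of HFD day 10, HFD day 30 and control (5 arrays each). Filled points were well above background, open points were not, and bars give the mean ± SD. Probe 1 of Cpt2, shown here, was well above background on 1 day 10 array, 0 day 30 arrays and 4 control arrays. For probe 2 of Ppara, 4 of 5 controls lay above all dieted arrays.

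**Figure D2:**
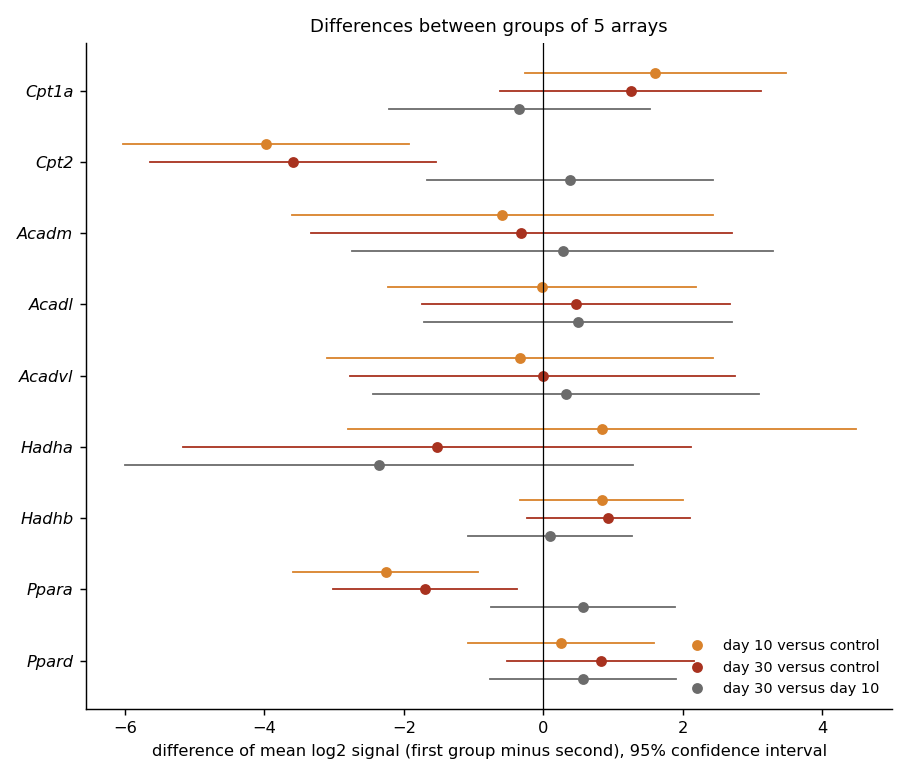
Difference of mean log2 signal (first group minus second) for each of the 9 genes in the 3 comparisons, with its 95% confidence interval from the limma fit. The intervals of Cpt2 and Ppara against control lie below 0 at both days, and all others include 0. The probes shown for Cpt2 and Ppara were the brightest of their genes in control but in neither dieted group. Probe 1 of Cpt2 was detected on 0 of 5 day 30 arrays, so its day 30 level is only a bound.

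Ppara encodes PPAR-alpha, the receptor that drives fatty acid oxidation genes in fasted liver. Its brightest probe on average, probe 2, begins at base 2697 of the transcript and maps to chr15:85632534-85632593 of build mm9 on the plus strand, with 2 spots per array. Another probe, probe 1, averaged -2.29 at day 10, -1.90 at day 30 and -2.61 in control, so probe 2 was the brighter only in control. Ppara was thus tested on the probe picked through the group where it was high, and its p gives no separate support. Probe 2 was well above background on all 15 arrays. The day 10 levels were -3.29, -2.03, -2.37, -2.41 and -3.33, the day 30 levels were -1.95, -3.18, -2.42, -1.28 and -1.80, and the control levels were -0.04, -2.35, 0.04, -0.16 and 0.38. All dieted arrays thus lay below 4 of the 5 controls, while control replicate 2 lay among them. The mean was -2.69 ± 0.59 at day 10 and -0.43 ± 1.10 in control (SD, n = 5 each), a difference of -2.26 (SE 0.62, 95% confidence interval -3.58 to -0.94), which is 4.80-fold lower. By limma the p was 0.00226 and the adjusted p was 1.00, and all 5 day 10 arrays lay below the control mean. At day 30 the mean was -2.12 ± 0.71, against -0.43 ± 1.10 in control (SD, n = 5 each), a difference of -1.70 (SE 0.62, limma p 0.0150, adjusted p 0.927), with 5 of 5 arrays below the control mean. Between day 30 and day 10 the difference was 0.56 (SE 0.62). In RNA of sorted cells, fewer cells that express a gene and less RNA per cell cannot be told apart.

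Slide and group cannot be told apart for day 30 against control, since no slide held both. Among the arrays of slide 1, the day 10 and control difference of Ppara was -2.14 (limma p 0.0231, adjusted p 1.00). With slide as a block, which reaches day 30 against control only through the day 10 arrays on both slides, the day 30 difference was -1.39 (limma p 0.236, adjusted p 1.00). In the authors' deposited table, probe 2 had log2 values of 4.21 to 4.60 at day 10, 4.07 to 5.05 at day 30 and 5.53 to 6.57 in control, with no value for control replicate 2, the control that lay among the dieted arrays. The difference at day 10 was -1.57 there (limma adjusted p 0.471) over the other 9 arrays, and in the scanner values without control replicate 2 it was -2.74 (limma adjusted p 0.733).

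The other Ppara probes did not show this pattern. Probe 1 begins at base 2273, 424 bases upstream in the transcript and also 424 in the genome, so no intron lies between it and probe 2. Its day 10 levels were -2.27, -1.23, -2.89, -2.21 and -2.83, its day 30 levels were -2.01, -0.52, -2.30, -2.35 and -2.30, and its control levels were -0.53, -1.05, -3.88, -3.50 and -4.10. Here the controls covered the range of the dieted arrays except day 30 replicate 2, which at -0.52 lay just above the highest control at -0.53. Control replicates 3 and 5 were not well above background. The difference was 0.33 (SE 0.78) for day 10 against control and 0.72 (SE 0.78) for day 30 against control, opposite in sign to probe 2. Over the 15 arrays the levels of probes 1 and 2 had a Pearson correlation of -0.42 (permutation p 0.117) and a Spearman correlation of -0.35 (permutation p 0.206). Adjusted over the 5 probe pairs examined in the 3 genes with several probes, these p were 0.585 and 0.725. Within slide 1 the Pearson correlation was -0.42 (n = 8 arrays) and within slide 2 it was -0.28 (n = 7), and it was -0.14 without the 2 arrays farthest from the median of probe 1. Probe 3, at base 7356, was well above background on 0 of 15 arrays and was not tested.

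Ppard encodes PPAR-delta, the most widely expressed of the PPARs. Its single probe (chr17:28438298-28438357, mm9, plus strand) was well above background on all 15 arrays. It read 2.00, 2.31, 2.21, 3.62 and 2.16 at day 10, 3.94, 3.36, 3.31, 1.27 and 3.24 at day 30, and 0.11, 2.51, 3.80, 1.89 and 2.71 in control. The controls held both the lowest and one of the highest levels, so the dieted groups lay nearly within them. The mean was 2.46 ± 0.66 at day 10, 3.02 ± 1.02 at day 30 and 2.20 ± 1.36 in control (SD, n = 5 each). The differences from control were 0.25 (95% confidence interval -1.08 to 1.59) at day 10 and 0.82 (-0.52 to 2.16) at day 30, and day 30 minus day 10 was 0.57 (-0.77 to 1.90).

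Cpt1a encodes the liver type of carnitine palmitoyltransferase 1, the isoform best known in lymphocytes. Its bright probe 2, at base 3941 of the transcript (chr19:3385374-3385433, mm9, plus strand), is printed on 10 spots and was well above background on all 15 arrays. Its levels were 0.51, 1.03, 0.61, 2.97 and 1.26 at day 10, 1.64, -0.80, 1.98, -0.22 and 2.04 at day 30, and -0.41, 0.43, -3.70, 0.94 and 1.12 in control. All day 10 arrays were above the control mean, control replicate 3 was the dimmest array by far, and the groups overlap. The mean was 1.28 ± 0.99 at day 10 and 0.93 ± 1.34 at day 30, against -0.32 ± 1.98 in control (SD, n = 5 each). The difference was 1.60 (SE 0.88, limma p 0.0885, adjusted p 1.00) for day 10 against control and 1.25 (SE 0.88, adjusted p 0.933 by limma) for day 30 against control. Without control replicate 3 the day 10 difference was 0.76 and the day 30 difference was 0.41. Day 30 minus day 10 was -0.35 (SE 0.88).

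The 10 spots of Cpt1a probe 2 show how far readings of 1 probe differ within an array. Within an array their SD was 0.05 to 0.27 log2 units with a median of 0.08, while the SD between arrays of a group was 0.99 to 1.98. The spots of an array share amplification, labelling and hybridisation, so their SD leaves out the error of those steps. Probe 1 of Cpt1a, 1314 bases upstream in both transcript and genome and so in the same exon stretch, was well above background on 4 day 10, 3 day 30 and 2 control arrays. It read -0.10, 0.40, -0.21, -6.04 and -1.41 at day 10, -2.85, 0.85, -4.38, 0.24 and -5.49 at day 30, and -1.45, -4.51, -5.78, -6.07 and 0.72 in control. Day 10 replicate 4 was the highest of all 15 arrays on probe 2 and the second lowest on probe 1. The differences from control, 1.95 at day 10 and 1.09 at day 30 (SE 1.60 each), had the sign of probe 2. Over the 15 arrays the levels of the Cpt1a probes had a Pearson correlation of -0.12 (permutation p 0.705, adjusted 0.941) and a Spearman correlation of -0.29 (permutation p 0.290, adjusted 0.725). Within slides the Pearson correlation was 0.52 (slide 1, n = 8) and -0.95 (slide 2, n = 7), so the pooled value does not hold within slides, and it was 0.09 without the 2 arrays farthest from the median of probe 1.

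Cpt2 encodes carnitine palmitoyltransferase 2, whose inherited lack in people impairs the use of long-chain fat by muscle. The lowest p among the 9 genes rests on its probe 1, a single spot on each array. That probe met the filter with exactly 5 arrays, of which 4 were controls, so it entered the test through the group where it was high and its p gives no separate support. The day 10 levels were -5.83, -5.73, -5.27, -6.16 and -3.34, the day 30 levels were -3.33, -5.90, -4.77, -5.33 and -5.08, and the control levels were -2.70, 0.74, -4.31, 0.54 and -0.71. Probe 1 was well above background on day 10 replicate 5 alone among the dieted arrays and on every control except replicate 3. That control lay within the range of the dieted arrays. The mean was -5.27 ± 1.12 at day 10 and -1.29 ± 2.18 in control (SD, n = 5 each), a difference of -3.98 (SE 0.97, 95% confidence interval -6.03 to -1.93). By limma the p was 0.000812 and the adjusted p was 0.969, the 21st smallest p of 25983 genes, and 5 of 5 day 10 arrays lay below the control mean. Only 1 of the 5 day 10 arrays stood well above background on this probe. The size of the day 10 difference therefore depends on how dim spots are read. With dim values set at their array's lowest signal well above background, the difference was -2.71.

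At day 30 probe 1 of Cpt2 was well above background on 0 of 5 arrays. The level of this probe there is only a bound, at least 4.80-fold below its measured control mean. The means as measured were -4.88 ± 0.96 at day 30 and -1.29 ± 2.18 in control (SD, n = 5 each), and the adjusted p of their difference was 0.887 by limma. For the bound, each day 30 array counted at the probe's level or at the array's lowest signal well above background, whichever was higher. The controls counted as measured, including replicate 3, which was not well above background. No fold is given for day 30 against day 10. Within slide 1 the day 10 and control difference was -4.32 (limma p 0.00502, adjusted p 1.00). Beside these differences, the mean level of the 17 enterocyte markers on an array ran from -3.04 to -1.88 at day 10, -3.56 to -1.90 at day 30 and -2.68 to -1.36 in control, and 9 to 13, 6 to 12 and 11 to 15 of them were well above background. The 6 adipocyte markers averaged -3.67 to -2.44 on an array at day 10, -4.83 to -3.48 at day 30 and -4.64 to -2.49 in control, with 3 to 4, 0 to 2 and 2 to 6 of them well above background. The mean level of the 8 stroma and endothelium markers ran from -4.45 to -2.90 at day 10, -4.20 to -3.28 at day 30 and -3.46 to -2.05 in control, with 1 to 4, 1 to 3 and 4 to 6 of them well above background. Of these 8, 3 were tested and 0 passed, with a median difference from control of -0.83 at day 10 and -1.27 at day 30. The same medians were -0.10 and -0.31 for 14 tested enterocyte markers, and 1.63 and -0.35 for 4 tested adipocyte markers. They were -0.20 and 0.30 for macrophages and dendritic cells, and -0.11 and 0.54 for B cells. For CD8 T and NK cells they were 0.54 and -0.23. The part of any of these cell types in the Cpt2 and Ppara values was not tested. With the array's share of detected spots as a covariate, the difference from control was -3.94 at day 10 for Cpt2, and -2.32 at day 10 and -1.83 at day 30 for Ppara.

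Probe 2 of Cpt2 lies 1377 bases downstream in the transcript and 3734 in the genome, so at least 1 intron separates the probes. It was well above background on 1 day 10 array, 1 day 30 array and 2 control arrays, too few for the filter. Its levels were -6.11, -1.59, -5.64, -6.33 and -4.12 at day 10, -5.49, -6.13, -5.02, -5.82 and -0.63 at day 30, and -3.13, -6.46, -6.08, -6.35 and -2.88 in control. The controls brightest on probe 1, replicates 2 and 4, were the dimmest on probe 2. The difference was 0.22 for day 10 against control (two-sided exact permutation p 0.865) and 0.36 for day 30 against control (exact permutation p 0.794). Between the Cpt2 probes the Pearson correlation was -0.09 (permutation p 0.768, adjusted 0.941), -0.22 within slide 1 (n = 8) and 0.22 within slide 2 (n = 7). It was 0.31 without the 2 arrays farthest from the median of probe 1, and the Spearman correlation was 0.03 (permutation p 0.913).

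**Figure D3:**
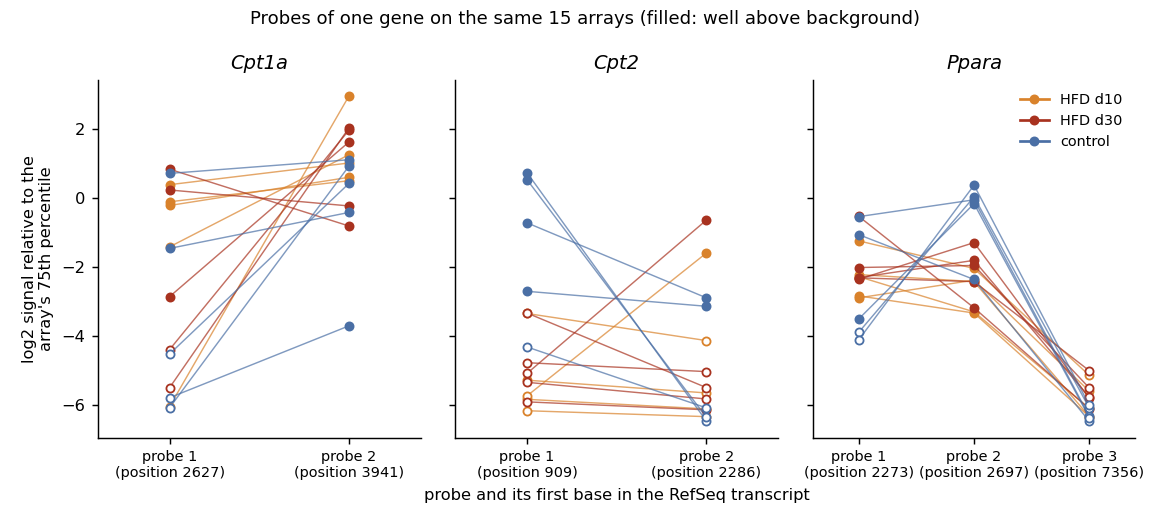
Levels of the probes of Cpt1a, Cpt2 and Ppara, log2 signal relative to the array's 75th percentile, placed by the probe's first base in the transcript, with 1 line for each of the 15 arrays (HFD day 10, HFD day 30, control). Filled points were well above background, and the lines cross: of the differences at day 10, Cpt2 had -3.98 on probe 1 and 0.22 on probe 2, and Ppara had 0.33 on probe 1 and -2.26 on probe 2.

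The 3 acyl-CoA dehydrogenases did not differ between groups beyond the spread of their arrays. Acadvl, which takes very long chains and sits on the inner membrane, was read by a probe at chr11:69823722-69823781 (mm9, minus strand) that was well above background on 14 arrays. It read -0.66, -1.35, -3.24, 2.29 and -3.41 at day 10, 1.49, -5.17, -0.13, -0.07 and -0.89 at day 30, and -1.63, -3.93, -0.32, 0.91 and 0.28 in control. The dimmest array, day 30 replicate 2, was the one not above background. Means of -1.28 ± 2.32 at day 10 and -0.95 ± 2.51 at day 30, against -0.94 ± 1.92 in control (SD, n = 5 each), gave differences of -0.34 (95% confidence interval -3.10 to 2.43) and -0.01 (-2.78 to 2.75).

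Acadl, the long-chain dehydrogenase, was read at chr1:66877673-66877732 (mm9, minus strand) and was well above background on all 15 arrays. It read 2.60, 1.00, 0.80, -0.29 and -0.43 at day 10, 3.14, 1.15, 2.77, -2.82 and 1.91 at day 30, and -1.36, 0.11, 2.57, 0.30 and 2.21 in control. Day 30 replicate 4 was the dimmest and day 30 replicate 1 the brightest of all arrays. The mean was 0.74 ± 1.22 at day 10 and 1.23 ± 2.39 at day 30, against 0.76 ± 1.62 in control (SD, n = 5 each). The differences were -0.03 (95% confidence interval -2.23 to 2.18) at day 10 and 0.47 (-1.74 to 2.67) at day 30.

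Acadm, the medium-chain dehydrogenase, was read at chr3:153585670-153585729 (mm9, minus strand) and was well above background on 13 arrays, all 5 controls among them. It read 2.59, 0.22, -3.56, 2.19 and -2.28 at day 10, 1.74, 1.39, -5.16, 0.97 and 1.60 at day 30, and -2.13, 0.66, 2.50, -0.04 and 1.12 in control. The day 10 arrays split widely, and 4 of the 5 day 30 arrays lay close together above the lone dim one, replicate 3. The mean was -0.17 ± 2.70 at day 10 and 0.11 ± 2.96 at day 30, against 0.42 ± 1.70 in control (SD, n = 5 each). The differences were -0.59 (95% confidence interval -3.61 to 2.43) at day 10 and -0.32 (-3.33 to 2.70) at day 30. Without day 30 replicate 3 the day 30 difference from control was 1.00. Between day 30 and day 10 the differences of Acadvl, Acadl and Acadm were 0.32, 0.49 and 0.27, with limma p of 0.807, 0.643 and 0.849.

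Hadha encodes the subunit of the trifunctional protein with the hydratase and 3-hydroxyacyl-CoA dehydrogenase activities, and Hadhb the one with the thiolase activity. Their genes lie head to head: in the RefSeq annotation of build GRCm38.p6 the start sites are 273 bases apart on opposite strands of chromosome 5. The 228 bases that lie upstream of both within 250 bases of each start site, chr5:30155003-30155230 on the plus strand, are shown because the subunits share them. They hold 15 CpG dinucleotides and 57.0% G and C, and the capitals mark the GC box GGGCGG, 1 match on either strand.
Hadha and Hadhb interval: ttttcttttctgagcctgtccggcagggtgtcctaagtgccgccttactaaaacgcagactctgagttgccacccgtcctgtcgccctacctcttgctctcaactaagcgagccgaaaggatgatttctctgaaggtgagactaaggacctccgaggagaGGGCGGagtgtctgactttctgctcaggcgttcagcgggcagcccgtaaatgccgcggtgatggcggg

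Each of the paired genes was read by a single probe, and the genes were not tested against each other. Hadhb (chr5:30510925-30510984, mm9, plus strand) was well above background on all 15 arrays. It read 3.48, 2.98, 3.04, 4.06 and 3.01 at day 10, 4.06, 2.78, 4.81, 2.47 and 2.93 at day 30, and 0.83, 1.82, 3.66, 3.15 and 2.92 in control. The day 10 arrays were close together, and control replicates 1 and 2 were the dimmest of all. The mean was 3.31 ± 0.46 at day 10 and 3.41 ± 0.99 at day 30, against 2.48 ± 1.14 in control (SD, n = 5 each). The differences were 0.84 (SE 0.55, limma p 0.149, adjusted p 1.00) at day 10 and 0.93 (SE 0.55, limma p 0.111, adjusted p 0.927) at day 30. With the array's share of detected spots as a covariate they were 0.32 and -0.27, and without control replicate 1 they were 0.43 and 0.52. Day 30 minus day 10 was 0.09 (SE 0.55).

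Hadha (chr5:30446215-30446274, mm9, minus strand) was well above background on 5 day 10, 3 day 30 and 5 control arrays. It read 1.06, 0.42, -3.01, 3.13 and 3.09 at day 10, 0.91, -6.10, 1.48, -5.76 and 2.38 at day 30, and -3.41, -0.25, 2.00, 0.85 and 1.31 in control. Day 30 replicates 2 and 4 lay at the floor of the array while the other 3 day 30 arrays read 0.91 or more. The mean was 0.94 ± 2.52 at day 10 and -1.42 ± 4.15 at day 30, against 0.10 ± 2.13 in control (SD, n = 5 each). The differences were 0.84 (95% confidence interval -2.80 to 4.48) at day 10 and -1.52 (-5.16 to 2.12) at day 30, and day 30 minus day 10 was -2.36 (-6.00 to 1.28), with limma adjusted p of 1.00, 0.964 and 0.999. Within slide 1 the day 10 difference was -0.61. With the array's share of detected spots as a covariate, Hadha differed by -4.45 for day 30 against control (limma p 0.0252, adjusted p 0.607) and by -4.03 for day 30 against day 10 (limma p 0.0211, adjusted p 0.945). With slide as a block these differences were -5.14 and -4.53. Without day 30 replicate 2 they were -0.35 and -1.19, and without day 30 replicate 4 they were -0.43 and -1.27. On day 30 replicates 2 and 4 Hadhb read 2.78 and 2.47, the 2 lowest levels of that group.

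**Figure D4:**
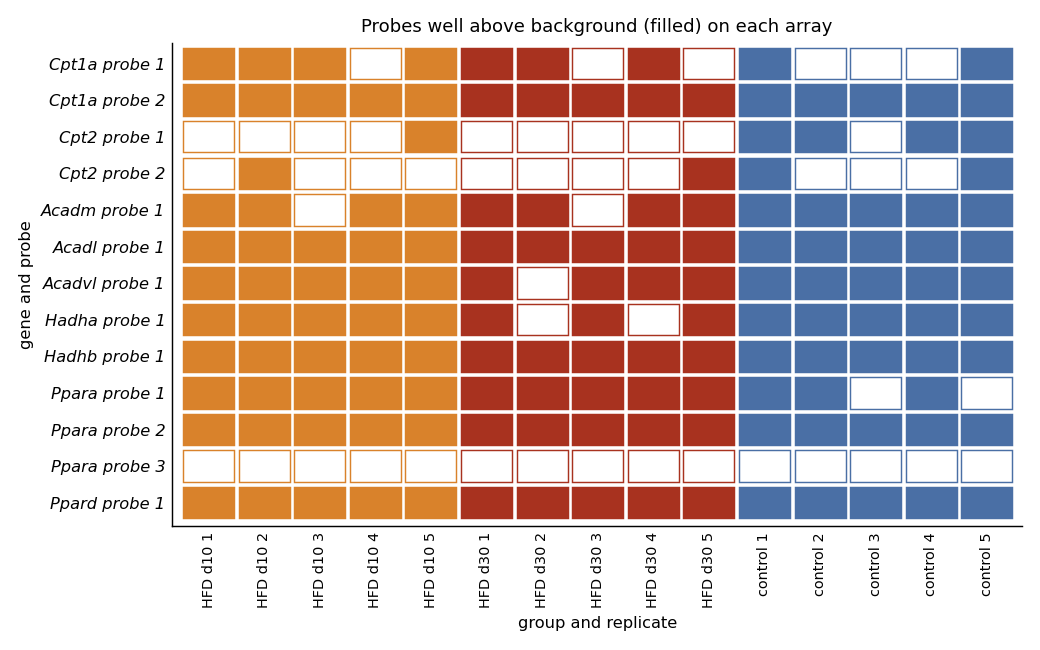
Probes well above background (filled) on each array, with 1 line for each of the 13 probes and 1 column for each array of HFD day 10, HFD day 30 and control. Cpt1a probe 2, Acadl, Hadhb, Ppara probe 2 and Ppard were detected on all 15 arrays, Ppara probe 3 on 0, and Cpt2 probe 1 on 1 day 10, 0 day 30 and 4 control arrays.

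The promoters of the 9 members, from RefSeq on build GRCm38.p6, were searched for the half-site AGGTCA that nuclear receptors bind, for the half-site AGGNCA repeated with 1 base between the copies, as PPAR with RXR binds, and for the GC box GGGCGG, each on both strands, from 250 bases before to 50 after the start site. All 9 members matched a promoter. AGGTCA was found in 3 of the 9, those of Cpt1a, Acadm and Acadvl, beside 16.3% of 32851 promoters of the same length. The spaced pair was found in 0 of the 9, beside 0.381% of all, and GGGCGG in 7 of the 9, beside 35.7% of all, and no matches overlapped within a promoter. The windows of Hadha and Hadhb overlap, and the only GC box of Hadha is also counted in Hadhb, so the 7 are not separate. The promoters of the members with the lowest p are shown with that of Cpt1a, with AGGTCA and GGGCGG on either strand in capitals. Cpt1a lies at chr19:3323051-3323350 on the plus strand, Cpt2 at chr4:107923540-107923839 on the minus strand and Ppara at chr15:85735526-85735825 on the plus strand.
Cpt1a promoter: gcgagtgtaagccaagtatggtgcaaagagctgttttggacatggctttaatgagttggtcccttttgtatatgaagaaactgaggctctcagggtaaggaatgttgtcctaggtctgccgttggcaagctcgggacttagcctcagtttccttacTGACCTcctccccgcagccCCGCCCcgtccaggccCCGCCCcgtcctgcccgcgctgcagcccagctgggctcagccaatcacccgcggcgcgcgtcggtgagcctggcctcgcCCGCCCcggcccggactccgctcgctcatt
Cpt2 promoter: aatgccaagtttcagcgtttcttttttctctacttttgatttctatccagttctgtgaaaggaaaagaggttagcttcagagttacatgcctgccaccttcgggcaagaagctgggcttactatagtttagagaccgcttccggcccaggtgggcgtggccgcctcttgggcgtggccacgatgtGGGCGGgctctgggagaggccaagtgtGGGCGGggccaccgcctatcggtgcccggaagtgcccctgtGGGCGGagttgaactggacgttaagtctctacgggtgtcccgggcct
Ppara promoter: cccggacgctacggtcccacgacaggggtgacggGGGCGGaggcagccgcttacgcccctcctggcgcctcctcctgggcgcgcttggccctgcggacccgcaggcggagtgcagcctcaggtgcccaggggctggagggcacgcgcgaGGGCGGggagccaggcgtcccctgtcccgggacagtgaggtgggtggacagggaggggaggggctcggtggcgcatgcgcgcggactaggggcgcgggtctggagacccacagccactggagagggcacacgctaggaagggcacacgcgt
In Cpt1a the half-site stood on the minus strand with its first base 94 bases before the start site, and in Acadvl on the plus strand 87 before. Cpt2 and Ppara, the members lower than in control at an unadjusted p under 0.05, had no half-site in this window and 3 and 2 GC boxes.

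Other genes of fatty acid metabolism were set beside the members in 8 lists. In each list 0 genes passed the test in each comparison, and the differences named here are among those with the smallest p of their list. Of the 13 genes of fatty acid uptake and activation 11 were tested, with median differences from control of -0.10 at day 10 and -0.09 at day 30. Fabp5, a fatty acid binding protein, differed by 3.01 (SE 1.33) for day 30 against day 10, the only gene of the list with an unadjusted p under 0.05 (0.0375 by limma). Acsl1, which activates long-chain fatty acids, differed by 3.54 (SE 1.97) there. Fabp5 and Acsl1 were each well above background on 2 day 10 and 4 day 30 arrays. The sizes of these differences therefore depend on how dim spots are read. The other genes of the carnitine shuttle, 5 tested of 5, had medians of 0.35 at day 10 and 0.25 at day 30 against control, and Cpt1c had 1.65 (SE 0.79) at day 30.

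In the rest of mitochondrial beta-oxidation, 12 of 15 genes were tested and the medians were 0.03 at day 10 and -0.15 at day 30 against control. Eci1, the isomerase for unsaturated chains, averaged -3.93 ± 2.29 at day 10 and -0.73 ± 2.82 in control (SD, n = 5 each), a difference of -3.20 (SE 1.34, limma p 0.0298, adjusted p 1.00). At day 30 Eci1 differed from control by -2.97 (SE 1.34) and Decr1, the dienoyl-CoA reductase that also serves unsaturated chains, by -3.31 (SE 1.28, limma p 0.0202, adjusted p 0.927). Of the arrays at day 30, 2 measured each of these genes well above background, against 5 in control. In peroxisomal beta-oxidation 12 of 13 genes were tested, with medians of -0.12 at day 10 and 0.54 at day 30 against control. Hsd17b4, the bifunctional enzyme of the peroxisome, averaged 0.00 ± 1.14 at day 10 and -3.61 ± 2.57 in control (SD, n = 5 each), a difference of 3.61 (SE 1.45, limma p 0.0242, adjusted p 1.00).

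Among 12 partners and coregulators of the PPARs 10 were tested, and Pparg itself was too dim. The median was -0.10 at day 10 and 0.60 at day 30 against control, and the median between day 30 and day 10 was 0.62. Ppargc1a, the coactivator PGC-1alpha, averaged -1.24 ± 2.08 at day 30, against -4.58 ± 1.87 at day 10 and -4.00 ± 1.43 in control (SD, n = 5 each), and was well above background on 4, 1 and 2 arrays. Day 30 minus day 10 was 3.33 (SE 1.10, limma p 0.00809, adjusted p 0.999), and day 30 minus control was 2.76 (SE 1.10, limma p 0.0236, adjusted p 0.927). Pprc1, a related coactivator, differed by 2.20 (SE 0.77, limma p 0.0111, adjusted p 0.999) between day 30 and day 10 and by 2.03 (SE 0.77) between day 30 and control. At day 30, 8 of the 10 were higher than in control, beside 50.3% of all tested genes, and 8 were higher than at day 10, beside 53.1% of all.

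Of 14 genes known as PPAR targets in other tissues, 10 were tested, with 5 higher and 5 lower than in control at both days. Their medians were 0.04 at day 10 and 0.22 at day 30 against control. Plin2, which coats lipid droplets, differed by 1.72 (SE 1.41) at day 10, and Ucp2, a mitochondrial carrier, by 0.94 (SE 0.62) at day 30. The 4 ketone body enzymes were all tested, with medians of -0.72 at day 10 and -1.55 at day 30 against control. At day 30, 1 was higher than in control, Bdh1 by 2.56 (SE 1.52), and 3 were lower. Oxct1 averaged -2.20 ± 3.35 at day 10 and -3.26 ± 3.66 at day 30 (SD, n = 5 each). In control Oxct1 averaged 0.74 ± 0.92 (SD, n = 5). Its difference was -2.94 (SE 1.65) at day 10 and -4.00 (SE 1.65, limma p 0.0278, adjusted p 0.927) at day 30. Oxct1 was well above background on 3 day 10, 2 day 30 and 5 control arrays. The sizes of its differences therefore depend on how dim spots are read. Among genes that set malonyl-CoA, the inhibitor of CPT1A, 3 of 6 were tested, and Acacb, which makes it at the outer membrane, differed from control by 1.19 (SE 0.75) at day 30.

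**Figure D5:**
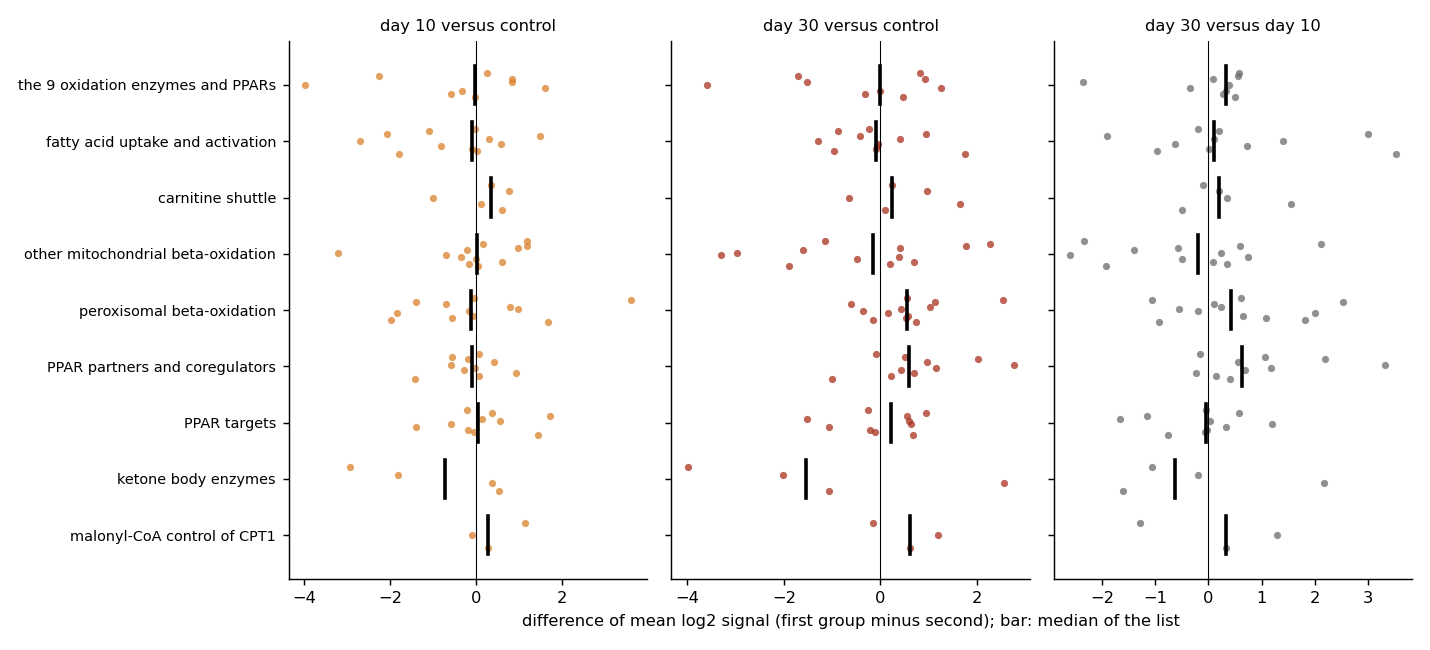
Difference of mean log2 signal (first group minus second) of every tested gene in the 9 members and the 8 pathway lists, in the 3 comparisons, with the median of each list as a bar. The members' medians were -0.03, -0.01 and 0.32, and single genes of most lists lay more than 1 log2 unit to either side of 0.

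The genes whose levels ran most like each member over the 15 arrays were sought among 14763 tested genes with a RefSeq symbol. Points share array and scaling, so the correlations are descriptions and carry no test. Hadhb ran most like Tra2a, a splicing factor (Pearson correlation 0.96), and Spn, the leukocyte surface protein CD43 (0.96). Ppard ran most like Gpbp1 (0.95) and Sytl3 (0.94), Acadm like Bms1 (0.93) and Stk26 (0.92), and Acadvl like Neu3 (0.91) and Slc30a9 (0.86). Cpt1a ran most like Ywhab (0.89) and Dda1 (0.88), Acadl like Abce1 (0.89) and Cdkn1a (0.88), and Hadha like Syap1 (0.87) and Uhrf1 (0.84). Ppara, by probe 2, ran most like Trim30b (0.86) and Gstm3 (0.84), and Cpt2, by probe 1, like Krtap6-5 (0.86). No member was among the 2 most alike genes of another member.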

How the data were processed

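Per the file headers, the deposited scanner files hold linear intensity for each spot from Agilent Feature Extraction 10.7.3.1 with protocol GE1_107_Sep09 and a grid of build mm9. A table of log2 values by the authors was also deposited: its columns share a median of 5.51, nearly all spots not well above background are missing, its scaling is not given in the sources used here, and it served as an alternative. After removal of outlier spots 46 probe values were missing. In 1 file a damaged line was skipped, and 0 spots were saturated. Spots of a probe were averaged as log2 intensity minus the array's 75th percentile, and probes take RefSeq symbols through their transcripts where these matched. Groups were compared in 1 fit of all 15 arrays (limma 3.58.1 and R 4.3.3: lmFit, then eBayes with a trend on intensity, two-sided), which was tested on simulated data. The number of arrays limits the precision. The closest arrays had a median absolute difference of 0.80, against 1.07 for the median pair, so none looked like a repeat. The members, gene lists and tests were chosen with earlier results of these data known. Named genes are all members, some of those with the 2 smallest p of a list in a comparison, and each member's 2 most correlated genes. Some named genes and 1 sequence are not reported here. The values showed no pairing of samples by the replicate numbers in the titles. Deviations of same-numbered arrays correlated at -0.13 to 0.15, with 1 of 15 pairs over 0.1. Those of arrays with different numbers correlated at -0.21 to 0.21. Same-numbered pairs thus did not stand out, which cannot show that the samples were unpaired. The closing section gives the alternatives.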

Additional observations from a re-analysis of the deposited data

Results flagged for a closer look

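Of 39 groups of 5 arrays (13 probes in 3 groups), 7 held 1 array far from the other 4 by Dixon's criterion, where chance alone would flag about 1 in 20 groups, or 1.95 of 39. At day 10, replicate 4 was low on Cpt1a probe 1, at -6.04 with the next array at -1.41, and high on Ppard, at 3.62 with the next at 2.31. At day 30, replicate 3 was low on Acadm, at -5.16 with the next at 0.97, and replicate 4 was low on Ppard, at 1.27 with the next at 3.24. Also at day 30, replicate 5 was high on Cpt2 probe 2, at -0.63 with the next at -5.02, and replicate 2 was high on Ppara probe 1, at -0.52 with the next at -2.01. In control, replicate 2 was low on Ppara probe 2, at -2.35 with the next at -0.16, and without it the differences from control were -2.74 at day 10 and -2.18 at day 30. The arrays of the low Cpt1a and Acadm values were not well above background there.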

How the results depend on the processing

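Under every alternative run, 0 members passed the threshold in each comparison. Cpt2 was lower than in control at day 10 under all 27 alternatives on scanner values (-4.74 to -1.51, adjusted p 0.686 to 1.00). The deposited table gave -1.30, from 1 day 10 value and 4 control values, too few to bear on it. At day 30, where the level of its probe 1 is only a bound, Cpt2 was lower under all 26. Ppara stayed lower under all 29 alternatives at day 10 (-2.74 to -0.97, adjusted p 0.471 to 1.00) and all 28 at day 30 (-2.18 to -0.49). Many alternatives, such as leaving out an array of the group not compared, leave a difference unchanged by design. The counts of alternatives for Cpt2 and Ppara are therefore no measure of how robust the differences are. The unadjusted p of Ppara was over 0.05 for the mean of its probes (-0.97 and -0.49) and, at day 30, with slide as a block. Over all genes, 1 gene passed for day 30 against control with slide as a block and 1 probe, not the one that stands for its gene, for day 30 against day 10 with every probe fitted on its own (adjusted p 0.0405). Leaving out 1 array gave 0 to 1 genes at day 10 (1 without HFD_d30 replicate 4), and 0 to 2 for each day 30 comparison (2 without HFD_d10 replicate 4). With the replicate block the differences from control were unchanged in size and 0 genes passed, with adjusted p for Cpt2 of 1.00 and 0.900, and the block changed no call.

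These signs turned. Day 10 against control: Acadm 0.25 (deposited table), Acadl 0.38 (quantile) and 0.70 (slide block, within slide), Hadha -0.61 (slide block, within slide) and -0.42 (detection covariate), Ppard -0.034 (slide block, within slide) and -0.38 (detection covariate), Ncoa1 -0.67 (slide block, within slide), Acaca -0.66 (mean of probes) and -0.087 (deposited table). Day 30 against control: Cpt1a -0.15 (slide block) and -0.30 (deposited table), Acadm 0.14 (normexp, and dim values raised) and 0.39 (deposited table), Acadl -1.52 (detection covariate) and -0.30 (deposited table), Acadvl 0.17 (normexp), 0.42 (quantile) and 0.24 (dim values raised), Hadha 0.36 (deposited table). With the detection covariate there, Hadhb was -0.27, Ppard -0.65, Slc27a1 0.082, Crot -0.29 and Ucp2 -0.46. Acsl1 was -1.39 and Acacb -0.016 (slide block), and Oxct1 1.07 and Acaca -0.17 (deposited table). Day 30 against day 10, slide block and within slide: Cpt2 -0.13, Acadvl -0.39, Hadhb -0.13, Cpt1b 0.35. Percentile over detected probes: Acadm -0.019, Hadhb -0.20. Quantile: Hadhb -0.20. Detection covariate: Acadm -0.052, Acadl -0.64, Acadvl -0.22, Hadhb -0.60, Ppard -0.28, Cpt1b 0.42. Deposited table: Acadl -0.040, Hadhb -0.30, Ppard -0.036, Decr1 0.16, Ehhadh -1.16, Bdh1 -0.015. The causes were not tested.

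Leaving out 1 array turned signs within these ranges. At day 10: Acadm -1.28 to 0.26 (positive without HFD_d10 replicate 3), Acadl -0.56 to 0.43 (control 3 or 5, HFD_d10 4 or 5), Acadvl -1.23 to 0.20 (control 4, HFD_d10 3 or 5), Hadha -0.041 to 1.82 (control 1), Ppard -0.27 to 0.65 (control 1, HFD_d10 4), Acaca -0.15 to 0.69 (control 3, HFD_d10 2). At day 30: Acadm -0.95 to 1.00 (control 3, HFD_d30 3), Acadl -0.064 to 1.48 (control 1, HFD_d30 1), Acadvl -0.76 to 1.04 (control 3, 4 or 5, HFD_d30 2). Day 30 against day 10: Cpt1a -0.63 to 0.083 (HFD_d10 4, HFD_d30 2), Cpt2 -0.0046 to 0.87 (HFD_d30 1), Acadm -0.57 to 1.59 (HFD_d10 3 or 5, HFD_d30 1, 2 or 5), Acadvl -0.29 to 1.38 (HFD_d10 3 or 5, HFD_d30 1), Hadhb -0.26 to 0.33 (HFD_d30 1 or 3). Scaling on detected probes moved the median of all genes to -0.38 at day 30 against control and -0.24 against day 10, and the deposited table to -0.24 and -0.14. The stricter filter, on all 15 arrays, left 5 members, and the deposited table gave no value for probe 1 of Cpt2 at day 30. No slide holds both day 30 and control arrays, so no value within a slide could be had for them.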
